A study of Mus musculus with 6 samples.

Results

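The genes examined encode subunits of voltage-gated sodium and calcium channels, 38 of the 27378 genes listed for each library. They were taken by symbol, whatever their values: 9 sodium channel alpha subunits, 3 sodium channel beta subunits, 10 calcium channel alpha1 subunits, 4 alpha2delta subunits, 4 calcium channel beta subunits and 8 gamma subunits. All 38 symbols were found. The tissue was whole brain, with all its cell types, of wild-type male mice of the inbred C57BL/6J strain. In the PS group, 3 libraries came from mice exposed through the nose to polystyrene nanoplastics for 28 days. In the control group, 3 libraries came from mice that received sterile distilled water intranasally, also for 28 days. The labels do not say that each library is 1 animal, so p-values measure the spread between libraries, which may be partly technical.

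Voltage-gated sodium channels open on depolarisation and carry the upstroke of the action potential. Their alpha subunit forms the pore, and beta subunits tune gating and hold the channel at the membrane. Voltage-gated calcium channels turn depolarisation into calcium entry. The alpha1 subunit sets the current type: L-type channels couple activity to gene expression, P/Q- and N-type channels trigger transmitter release, R-type channels add to release and to dendritic calcium entry, and T-type channels open near rest and drive burst firing. Alpha2delta and beta subunits bring alpha1 to the membrane. Most brain gamma subunits are transmembrane AMPA receptor regulatory proteins (TARPs), which carry AMPA-type glutamate receptors to synapses.

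Sodium channel alpha subunits are close relatives of each other, which matters for how reads are told apart. Over whole GENCODE M21 transcripts, 5.76% of the 50-base words of Scn2a were also found in transcripts of another gene, and 6.49% for Scn3a, 4.04% for Scn9a and 4.03% for Scn1a. These 4 genes share words with each other and, apart from Scn2a and Scn1a, lie side by side with no protein-coding gene between neighbours in the GRCm38.p6 annotation. Scn8a shared 0.0374% of its words. Reads that fall in shared words cannot be assigned with certainty, so small differences among Scn1a, Scn2a, Scn3a and Scn9a are uncertain to that extent. On the opposite strand, 15% of the words of Cacnb4 and 16.3% of those of Cacna1s belonged to transcripts of another gene, and no source used here gives the strand setting of the counting. The antisense partner of Cacnb4, A430018G15Rik, was listed at 0.635 to 0.676 FPKM in PS and 0.575 to 0.582 FPKM in control libraries. Gm13629, which overlaps 1.02% of the words of Scn9a and 0.928% of those of Scn3a on the opposite strand, stood at 4.23 to 4.69 FPKM in PS and 3.44 to 5.42 FPKM in control libraries. This is above Scn9a, and above Scn3a in deposited FPKM but near its level per longest coding transcript, 4.26.

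The reads behind the values numbered 40015627 to 40335590 in PS and 39239183 to 39694248 in control libraries. FPKM, fragments per kilobase of gene scaled to the size of the library, allows levels of different genes to be set side by side. Neuronal marker genes were high in every library: 8 of them summed to 2419 to 2601 FPKM in PS and 2472 to 2543 FPKM in control. In whole brain, fewer cells of a type and less RNA per cell cannot be told apart. Control replicate 2 was the outlying library on principal component 1 (42.3% of the variance), with a score of 17.46, where PS libraries lay between -5.44 and -2.79 and the other control libraries at 2.93 and -8.21. PS replicate 1 had the highest muscle marker level: 8 skeletal muscle markers summed to 19.5 FPKM there, against 5.27 and 5.58 in the other PS libraries and 4.21 to 6.02 in control libraries.

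Of the 38 subunit genes, 28 had a mean of at least 1 FPKM over the 6 libraries and were tested, and 10 did not. None of the 28 was called higher or lower in PS brains by limma at an adjusted p under 0.05, and none had an unadjusted p under 0.05. Over all 12229 genes tested, 0.164% were called lower (20 genes) and 0% higher, and 5.94% had an unadjusted p under 0.05. A fit that blocked on replicate number called 45 of all genes lower and 3 higher, again with no channel subunit among them. On whole reads recovered from the FPKM values, limma-voom called 29 genes lower and 0 higher, and none of the 28. Adjusted p ran from 0.879 to 0.997 over the 28. Their log2 fold changes (PS over control, computed on log2(FPKM + 1)) lay between -0.16 for Cacnb1 and 0.14 for Cacna1g, with 19 above 0 and 9 below. Their median was 0.040, against 0.003 over all genes tested. The groups overlapped in every tested subunit, where 11.3% of all tested genes had no overlap.

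The size of difference these libraries leave possible can be stated. No 95% interval reached below -0.38 (Cacna1h) or above 0.34 (Cacna1c), which correspond to 0.767 and 1.27 times the control level on that scale. From estimate to bound, the intervals measured 0.14 for Cacnb2, the narrowest, to 0.26 for Cacna1c, the widest. Counting error was smaller than the spread between libraries in each tested subunit. Each tested subunit had 1373 to 15079 reads per library, with counting error of 0.856 to 2.56% of the level and a within-group spread of 3.6 to 15.1%.

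**Figure D1:**
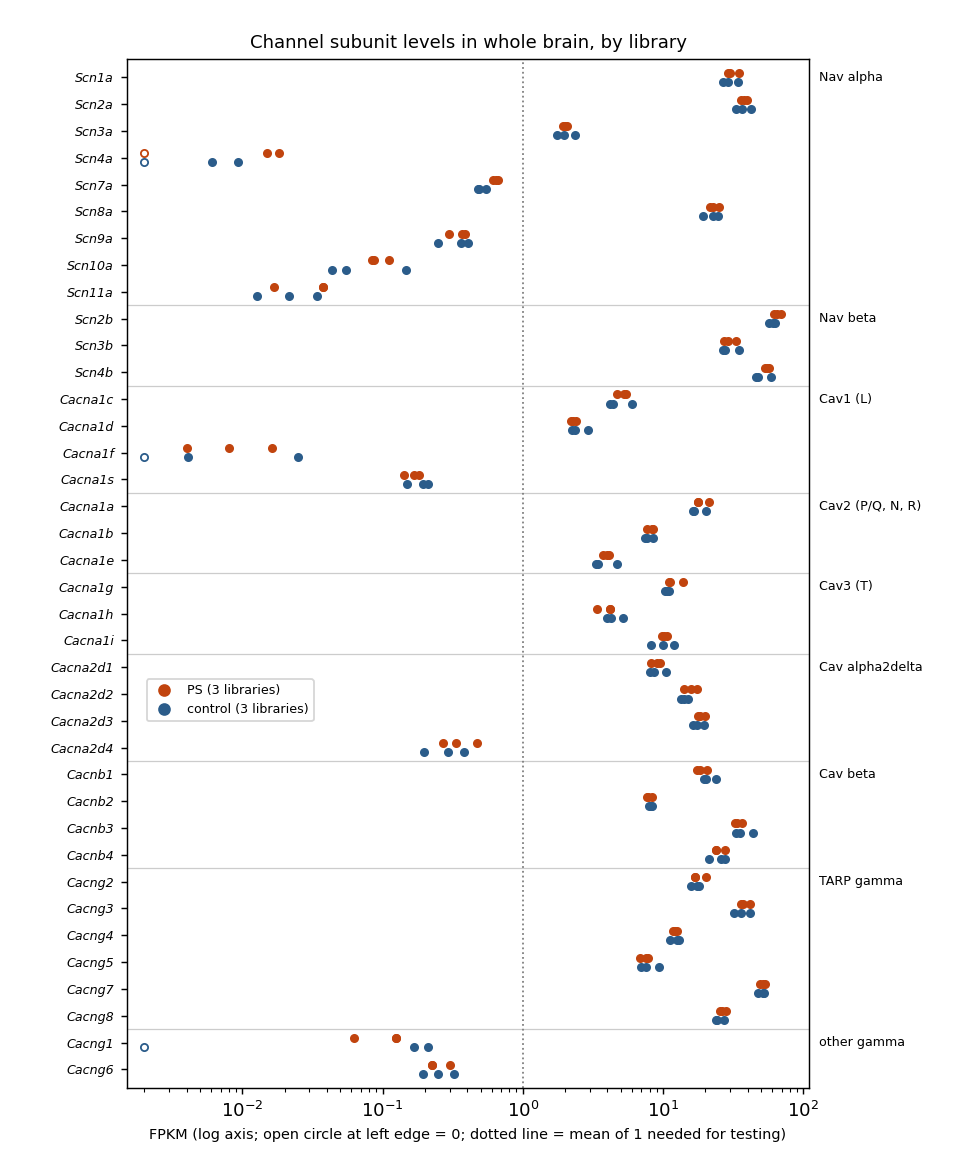
FPKM of all 38 subunit genes on a log axis, 1 point per library, PS above control in each row, with values of 0 as open circles at the left edge. The dotted line is at 1 FPKM; 28 genes lie to its right, from Scn3a at a mean of 2.01 to Scn2b at 62.6 FPKM, and 10 lie to its left.

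Among sodium channel alpha subunits, Scn2a, Scn1a and Scn8a made up nearly all the RNA. Scn2a encodes the subunit of excitatory neurons and of immature axon segments. It stood at 39.81, 37.42 and 35.96 FPKM in PS and 36.31, 41.94 and 32.79 FPKM in control libraries. The control values enclose all 3 PS values, and the log2 fold change was 0.033 (SE 0.088, limma adjusted p = 0.993). Scn1a, the main subunit of fast-spiking inhibitory neurons and the gene altered in Dravet syndrome, averaged 31.13 ± 2.94 FPKM in PS and 29.91 ± 3.68 FPKM in control brains (SD, n = 3 each). Scn8a, the subunit of mature axon initial segments and nodes of Ranvier, averaged 23.18 ± 1.83 FPKM in PS and 22.16 ± 2.67 FPKM in control. Scn3a, known mainly from the embryonic brain, was the lowest subunit that was tested. It had 2.052, 1.933 and 1.987 FPKM in PS and 1.977, 2.37 and 1.747 FPKM in control libraries (log2 fold change -0.015, SE 0.089, adjusted p = 0.996). In PS libraries Scn2a held 38.8 to 40.5% of the summed alpha subunit FPKM, Scn1a 31.5 to 33.6% and Scn8a 23.9 to 24.7%. In control libraries the shares were 37.8 to 43.5%, 27.8 to 35.4% and 23 to 25.3% for the same 3 genes. Control replicate 2 set the edge of each: it had the highest share of Scn2a and of Scn8a and the lowest share of Scn1a.

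The remaining alpha subunits were below 1 FPKM. Scn7a, which encodes the sodium-sensing channel of glia and of circumventricular organs, came nearest to the threshold. It had 0.6472, 0.6627 and 0.6168 FPKM in PS libraries and 0.481, 0.49 and 0.5471 FPKM in control libraries. This is the only subunit of the 38 in which the groups did not overlap, at 181 to 196 reads in PS and 140 to 159 reads in control. When every gene above 0 was fitted, its log2 fold change was 0.13 (SE 0.040) with an unadjusted p of 0.0208 and a limma adjusted p of 0.83, so it did not pass. In plain FPKM, which the added 1 does not compress, PS stood at 1.27 times control, from 1.24 to 1.32 with each library left out in turn. The counting error of Scn7a, 7.72% of its level, was larger than its within-group spread of 5.27%. Of all tested genes, which do not include Scn7a, 11.3% had no overlap. Scn9a, Scn10a and Scn11a, sodium channels of pain-sensing neurons, averaged 0.352, 0.0936 and 0.0307 FPKM in PS and 0.337, 0.0818 and 0.0227 FPKM in control. Scn4a, the skeletal muscle channel, had 0 to 6 reads in a PS library and 0 to 3 in a control library, where a count of 0 allows up to 3 reads. It had 6 reads in PS replicate 1, the library with the high muscle markers, and 5 in PS replicate 2, whose muscle markers were at the control level.

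Sodium channel beta subunits were the most abundant class per gene, with 3 genes summing to about as much FPKM as the 6 TARPs. Scn2b, which links to alpha subunits through a disulfide bond, was the highest of all 38 genes in deposited FPKM. It stood at 69.22, 64.9 and 61.41 FPKM in PS and 60.6, 62.22 and 57.02 FPKM in control libraries. PS replicate 3 lay inside the control range, and the difference did not pass (log2 fold change 0.12, SE 0.064, adjusted p = 0.884). Scn4b, known for resurgent sodium current and abundant in striatum and Purkinje cells, had 52.96, 56.77 and 55.26 FPKM in PS and 47.34, 46.25 and 58.24 FPKM in control libraries. Here control replicate 3 lay above all PS libraries while control replicates 1 and 2 lay below them (log2 fold change 0.12, adjusted p = 0.945). Without control replicate 3 the log2 fold change of Scn4b was 0.23, and limma still did not call it (adjusted p = 0.17). Scn3b, which binds alpha subunits without a covalent bond, averaged 29.81 ± 3 FPKM in PS and 29.61 ± 4.42 FPKM in control brains (SD, n = 3 each). Summed over the 3 genes, beta subunits were at 149.5, 154.8 and 145.7 FPKM in PS and 135.5, 143.2 and 141.9 FPKM in control libraries. The summed values did not overlap, and PS stood at 1.07 times control, from 1.052 to 1.085 with each library left out in turn. This sum was singled out after its values were seen and carries no test.

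**Figure D2:**
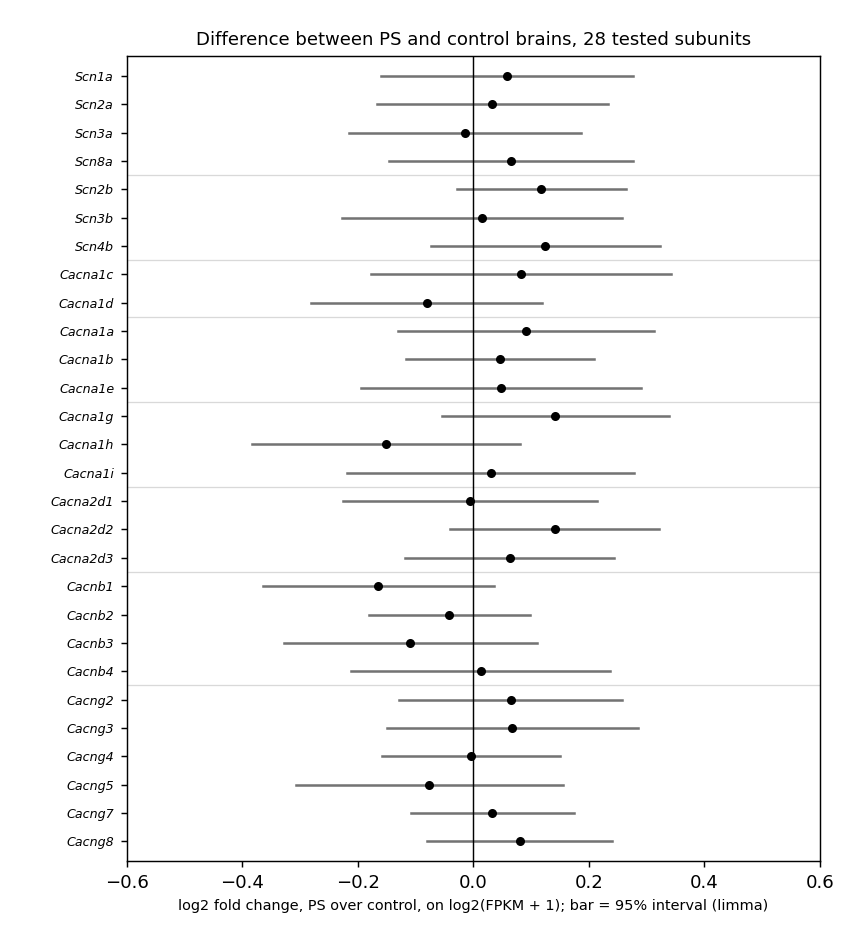
Log2 fold change (PS over control, log2(FPKM + 1) scale) of each tested subunit as a point with its 95% interval from limma. Every interval includes 0, and together they run from -0.38 to 0.34.

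Among calcium channel alpha1 subunits, the P/Q-, N- and R-type genes took 47.4 to 48.5% of the summed FPKM in PS and 46.2 to 48.4% in control libraries. T-type genes took 39.8 to 41.1% in PS and 39.9 to 42.1% in control, and L-type genes 11.4 to 12.4% in PS and 11.7 to 12.9% in control. The make-up by current type therefore overlapped between the groups in all 3 types. Cacna1a, the P/Q-type subunit of most central synapses and of Purkinje cells, led the class. It had 21.23, 17.73 and 17.69 FPKM in PS and 16.68, 20.1 and 16.26 FPKM in control libraries (log2 fold change 0.09, SE 0.098, adjusted p = 0.976). PS replicate 1 and control replicate 2 were its high libraries: the log2 fold change was 0.0084 without PS replicate 1 and 0.18 without control replicate 2. Cacna1b, the N-type subunit, averaged 8.141 ± 0.439 FPKM in PS and 7.858 ± 0.572 FPKM in control, and Cacna1e, the R-type subunit, 3.937 ± 0.202 FPKM in PS and 3.81 ± 0.758 FPKM in control (SD, n = 3 each).

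The T-type class held log2 fold changes from -0.15 to 0.14, the widest range of any class. Cacna1g, abundant in thalamic relay neurons and cerebellum, had 13.77, 10.92 and 11.18 FPKM in PS and 10.69, 11.03 and 10.34 FPKM in control libraries. PS replicates 1 and 3 lay above the control range and PS replicate 2 inside it (log2 fold change 0.14, SE 0.087, adjusted p = 0.919). The log2 fold change was 0.044 without PS replicate 1 and 0.199 without PS replicate 2. Cacna1h had 3.393, 4.176 and 4.186 FPKM in PS and 4.26, 5.171 and 3.975 FPKM in control libraries. Its low and high ends were again PS replicate 1 and control replicate 2 (log2 fold change -0.15, SE 0.10, adjusted p = 0.94). Without PS replicate 1 it was -0.072, and without control replicate 2 it was -0.061. As a share of T-type FPKM, Cacna1h held 12.2 to 16.6% in PS and 17.1 to 18.4% in control libraries. Cacna1i, found in the reticular thalamus and cortex, averaged 10.17 ± 0.389 FPKM in PS and 10.04 ± 1.83 FPKM in control.

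L-type channels of the brain are built on Cacna1c and Cacna1d. Cacna1c had 5.426, 5.281 and 4.725 FPKM in PS and 4.375, 5.998 and 4.172 FPKM in control libraries (log2 fold change 0.08, SE 0.11, adjusted p = 0.979). Control replicates 1 and 3 were the lowest libraries and control replicate 2 the highest. Without control replicate 2 its log2 fold change was 0.22 (adjusted p = 0.708), and without control replicate 3 it was 0.0008. Cacna1d, the subunit of pacemaking neurons, had 2.283, 2.408 and 2.194 FPKM in PS and 2.352, 2.908 and 2.225 FPKM in control libraries (log2 fold change -0.081, SE 0.088, adjusted p = 0.977). Set against each other, Cacna1c held 68.6, 67.2 and 66.9% of L-type FPKM in PS and 63.2, 66.1 and 63.2% in control libraries. The share of Cacna1d was 28.9, 30.6 and 31.1% in PS and 34, 32 and 33.7% in control libraries. Neither share overlapped between the groups. Of 28 shares of a tested subunit in its own class, these 2 and that of Cacna1h had no overlap, beside 11.3% of single genes. The shares of a class sum to a whole, so those of Cacna1c and Cacna1d are not separate observations. The L-type genes of muscle and retina were near 0: Cacna1s averaged 0.164 FPKM in PS and 0.184 in control, and Cacna1f had 1 to 4 reads in a PS library and 0 to 6 in a control library. In PS replicate 1, Cacna1s stood at 0.1806 FPKM, inside the control range of 0.1497 to 0.2091.

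**Figure D3:**
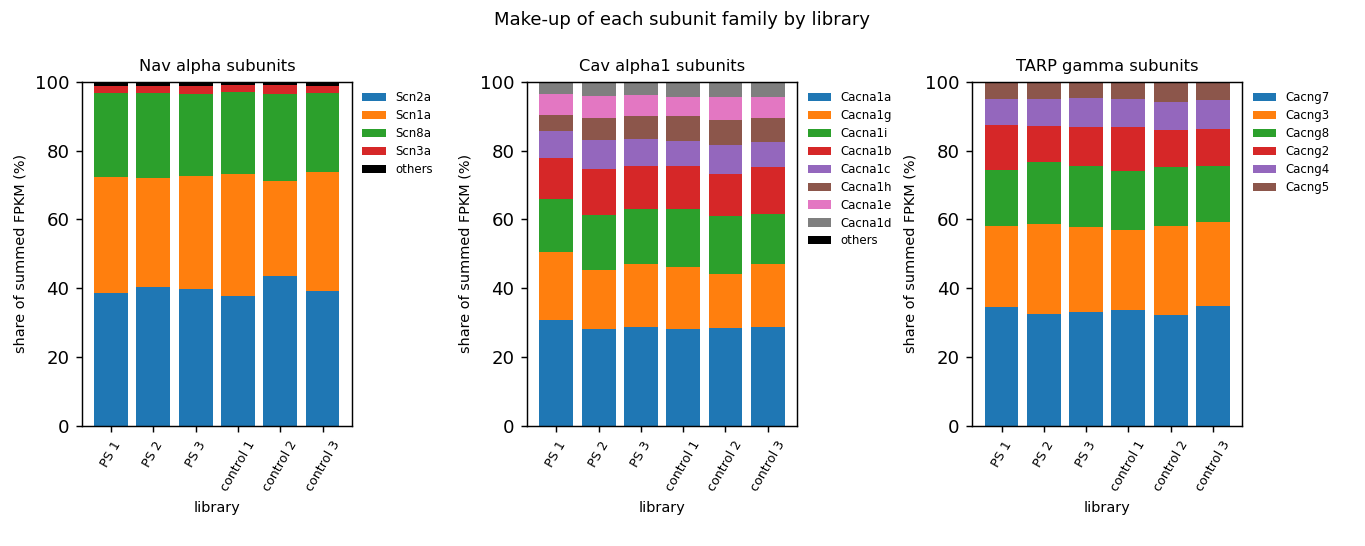
Stacked bars of the share of summed FPKM (percent) taken by each gene, 1 bar per library, for sodium channel alpha, calcium channel alpha1 and TARP subunits, with genes under 1% pooled as others. Scn2a holds 38.8 to 40.5% of alpha subunit FPKM in PS and 37.8 to 43.5% in control libraries, and Cacna1g is the second-largest part of the calcium bars in all libraries but control replicate 2, where Cacna1i is.

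Alpha2delta subunits, the binding site of gabapentin-type drugs in the case of Cacna2d1 and Cacna2d2, summed to 41.9 to 45.6 FPKM in PS and 39.1 to 44 FPKM in control. Cacna2d3 was the most abundant. It had 18.16, 19.87 and 17.67 FPKM in PS and 16.25, 19.67 and 17.35 FPKM in control libraries (log2 fold change 0.063, SE 0.080, adjusted p = 0.979). The groups interleaved, and the log2 fold change was 0.0051 with control replicate 1 left out and 0.14 with control replicate 2 left out. Cacna2d2, the subunit of Purkinje cells whose loss gives the ducky mouse, had 17.38, 14.17 and 15.72 FPKM in PS and 14.11, 13.44 and 14.93 FPKM in control libraries. Again PS replicate 1 was the highest (log2 fold change 0.14, SE 0.080, adjusted p = 0.896), and without it the log2 fold change was 0.072. Cacna2d1 averaged 8.926 ± 0.67 FPKM in PS and 9.004 ± 1.29 FPKM in control (SD, n = 3 each), and Cacna2d4, a retinal subunit, 0.359 FPKM in PS and 0.29 FPKM in control.

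Among the 28 tested subunits, the lowest unadjusted p was that of a calcium channel beta subunit. Cacnb1 had 17.54, 20.44 and 18.33 FPKM in PS and 20.14, 23.92 and 19.53 FPKM in control libraries. PS replicate 2 lay inside the control range and the other 2 PS libraries below it. Its log2 fold change was -0.16 (SE 0.088, unadjusted p = 0.0963, limma adjusted p = 0.879), and with the replicate block the unadjusted p was under 0.05 and the adjusted p 0.548. Without control replicate 2 the log2 fold change of Cacnb1 was -0.078. Cacnb3, the most abundant beta subunit, had 32.73, 36.25 and 33.77 FPKM in PS and 35.45, 43.37 and 32.9 FPKM in control libraries. Control replicate 2 alone stood out (log2 fold change -0.11, adjusted p = 0.973), and without it the log2 fold change was 0.0027. Cacnb4, the cerebellar subunit lost in the lethargic mouse, averaged 24.98 ± 2.14 FPKM in PS and 24.83 ± 3.25 FPKM in control. Cacnb2, best known from heart, averaged 7.927 ± 0.34 FPKM in PS and 8.184 ± 0.229 FPKM in control (SD, n = 3 each).

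Of the 6 TARPs, Cacng7 was the highest. It had 53.63, 51.19 and 49.06 FPKM in PS and 47.09, 51.95 and 51.29 FPKM in control libraries (log2 fold change 0.033, SE 0.063, adjusted p = 0.988). Cacng3, a TARP of the forebrain, averaged 38.2 ± 3.06 FPKM in PS and 36.52 ± 4.75 FPKM in control. Cacng8, the hippocampal TARP, had 25.27, 28.21 and 26.21 FPKM in PS and 24.19, 27.21 and 23.86 FPKM in control libraries. Only PS replicate 2 lay above the control range (log2 fold change 0.08, SE 0.071, adjusted p = 0.973). Cacng2, or stargazin, which cerebellar granule cells need for AMPA receptor delivery, had 20.26, 16.76 and 16.85 FPKM in PS and 17.91, 17.56 and 15.79 FPKM in control libraries (log2 fold change 0.065, SE 0.085, adjusted p = 0.979). Here too PS replicate 1 was the highest library. Cacng4 averaged 12.17 ± 0.339 FPKM in PS and 12.22 ± 0.904 FPKM in control, and Cacng5 7.427 ± 0.501 FPKM in PS and 7.931 ± 1.29 FPKM in control. The other gamma subunits were low. Cacng6 had 0.2264, 0.3024 and 0.2265 FPKM in PS and 0.1932, 0.2487 and 0.3254 FPKM in control libraries. The control values enclose those of PS. Cacng1, a subunit of the muscle calcium channel, had 3 to 6 reads in a PS library and 0 to 10 in a control library.

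The subunits differed between libraries within a group. Control replicate 2 was the highest of the 6 libraries for 15 of the 28 tested subunits, where it was the highest for 23.7% of all tested genes. It was also the lowest for 3 subunits, Scn1a, Scn4b and Cacna2d2. These 15 were Scn2a, Scn3a, Scn3b, Cacna1c, Cacna1d, Cacna1b, Cacna1e, Cacna1h, Cacna1i, Cacna2d1, Cacnb1, Cacnb3, Cacnb4, Cacng4 and Cacng5. PS replicate 1 was the highest for 8: Scn1a, Scn8a, Scn2b, Cacna1a, Cacna1g, Cacna2d2, Cacng2 and Cacng7, where it was the highest for 13.8% of all tested genes. Control replicate 3 was the lowest library for 13, and for 17.9% of all tested genes. The median deviation of the 28 from their mean over all libraries was 0.058, 0.012 and -0.037 on the log2 scale in PS replicates 1, 2 and 3, and -0.065, 0.14 and -0.11 in control replicates 1, 2 and 3. The control libraries thus spanned a wider range than the PS libraries and enclosed it.

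**Figure D4:**
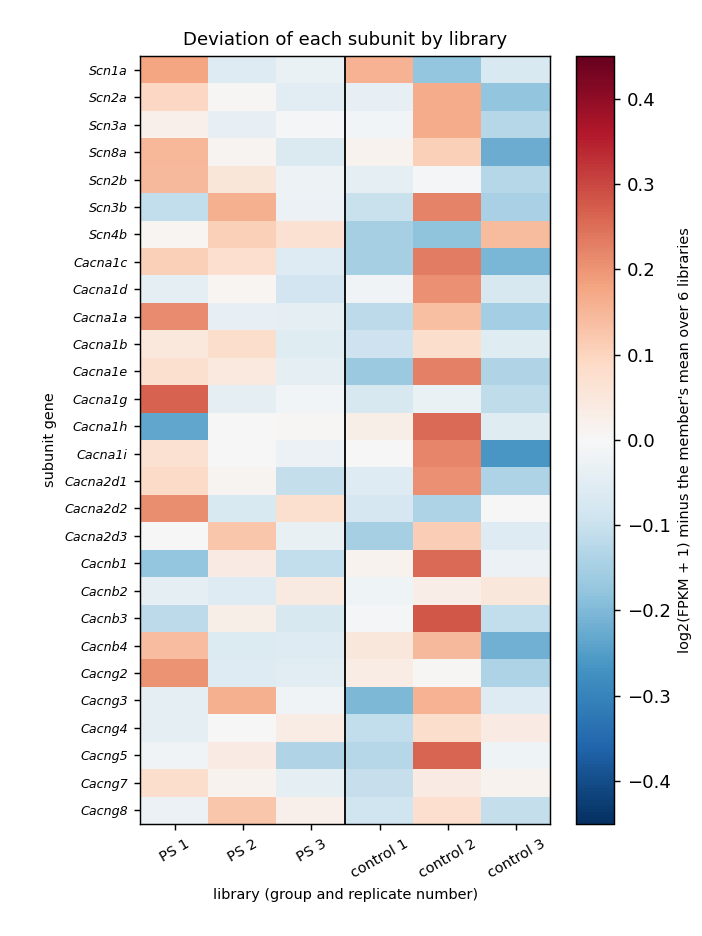
Heat map of log2(FPKM + 1) minus each subunit's mean over the 6 libraries, with subunits as rows, PS libraries left and control libraries right of the line. Control replicate 2 is the column with most subunits above their mean (23 of 28), and control replicate 3 that with fewest (5 of 28).

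Markers of brain regions differed between these libraries. In PS replicate 1, 10 cerebellar markers summed to 496 FPKM, against 346 and 403 FPKM in PS replicates 2 and 3 and 346 to 386 FPKM in control libraries. Likewise 9 thalamic and midbrain markers summed to 94.2 FPKM in PS replicate 1, against 72.7 and 76.4 FPKM in PS replicates 2 and 3 and 59.3 to 75.4 FPKM in control libraries. In control replicate 2, 8 cortical and hippocampal markers summed to 425 FPKM, where PS libraries had 344 to 383 FPKM and the other control libraries 335 and 338 FPKM. Oligodendrocyte markers ran the other way there: 8 of them summed to 1153 FPKM in control replicate 2, against 1584 to 1779 FPKM in PS and 1523 and 1654 FPKM in the other control libraries. A list of 7 genes held precursor markers together with Olig1, Olig2 and Sox10, which mark the whole oligodendrocyte lineage. The list summed to 110 to 115 FPKM in PS and 87 to 104 FPKM in control libraries. Most of this sum was Olig1, at 63.4 to 66.79 FPKM in PS and 47.39 to 63.39 FPKM in control libraries. Astrocyte markers, 6 in all, summed to 368 to 400 FPKM in PS and 362 to 378 FPKM in control, and 8 striatal markers to 288 to 389 FPKM in PS and 281 to 396 FPKM in control. The oligodendrocyte markers had a median log2 fold change of 0.23 (8 of 8 positive), and the precursor and lineage list 0.23 (6 of 7). It was 0.16 for the cerebellar markers (10 of 10) and 0.16 for the thalamic and midbrain markers (8 of 9). The median was 0.058 for astrocyte markers (6 of 6), 0.024 for striatal markers (5 of 8), 0.0078 for neuronal markers (6 of 8) and -0.026 for cortical and hippocampal markers (2 of 8). In the precursor and lineage list, the gene below 0 was Pdgfra (-0.078), and Vcan, among the 6 above 0, was at 0.018. No tested gene of any marker list was called by limma in either direction. The part of these markers in the subunit values was not tested. Of the genes that mark sensory neurons, 7 were listed and summed to 3.38 to 3.8 FPKM in PS and 3.25 to 4.55 FPKM in control, and 8 retinal markers summed to under 1 FPKM in every library, with the photoreceptor regulator Crx at 0 in 2 of the PS libraries and in all control libraries.

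Proteins that work with the channels were described from 4 lists. Of 10 sodium channel partners, all tested, none was called, and 8 had positive log2 fold changes (median 0.054). Nfasc, the adhesion molecule of axon initial segments and nodes, had 18.24, 16.51 and 16.08 FPKM in PS and 14.9, 14.78 and 14.5 FPKM in control libraries. All PS libraries lay above all control libraries (log2 fold change 0.19, SE 0.064, limma adjusted p = 0.685). Sptbn4, the spectrin that ties the channels to the axonal skeleton, had 17.06, 17.1 and 17.05 FPKM in PS and 15.46, 15.78 and 15.75 FPKM in control libraries, also without overlap (log2 fold change 0.12, SE 0.053, adjusted p = 0.842). Ank3, which encodes ankyrin-G, the anchor that gathers sodium channels at the initial segment, had 8.53, 7.276 and 7.663 FPKM in PS and 7.674, 7.702 and 6.26 FPKM in control libraries (log2 fold change 0.11, SE 0.090, adjusted p = 0.969). The groups of Nfasc and Sptbn4 are 2 of 10 without overlap, beside 11.3% of all tested genes.

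Of 18 calcium channel partners, 14 were tested and none was called (median log2 fold change -0.020, 5 positive). Rem2 encodes a small GTPase of the RGK family that inhibits high-voltage-activated calcium channels. On the log2(FPKM + 1) scale it had the largest log2 fold change of the 4 lists. It had 4.024, 4.48 and 5.324 FPKM in PS and 5.407, 6.469 and 6.445 FPKM in control libraries. All PS libraries lay below all control libraries (log2 fold change -0.34, SE 0.10, unadjusted p = 0.00763), yet limma's adjusted p was 0.543. Groups without overlap, in either direction, were found in 11.3% of all tested genes. With the replicate block the adjusted p of Rem2 was 0.126. Gem, another RGK inhibitor, was under the filter at 0.2368, 0.3898 and 0.3062 FPKM in PS and 0.6174, 0.6717 and 0.4492 FPKM in control libraries. These values do not overlap either, and in the fit of every gene above 0 the adjusted p was 0.716. In plain FPKM, Gem averaged 0.311 in PS and 0.58 in control, a larger relative difference than for Rem2 (4.609 and 6.107). Rrad, of the same family and also under the filter, overlapped, at 0.755 FPKM in PS and 0.652 FPKM in control. Rem1, the other RGK gene of the list, was under the filter too and overlapped, at 0.0725 FPKM in PS and 0.0949 FPKM in control. The naming rule does not cover Gem, Rrad or Rem1, and all were picked with their values known. Tspoap1, a scaffold that ties calcium channels to release sites, had 8.939, 8.574 and 9.894 FPKM in PS and 10.88, 12.4 and 9.24 FPKM in control libraries (log2 fold change -0.22, SE 0.10, adjusted p = 0.844). Stac2, an adaptor protein that binds L-type channels, had 21.88, 24.55 and 24.18 FPKM in PS and 24.26, 24.69 and 24.61 FPKM in control libraries (log2 fold change -0.059, SE 0.061, adjusted p = 0.975). The groups of both genes overlapped.

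The sodium leak channel NALCN, a relative that sets resting excitability, was followed with its accessory genes. All 5 genes found were tested and none was called. Nalcn had 18.92, 17.87 and 17.92 FPKM in PS and 16.86, 16.27 and 16.64 FPKM in control libraries, with no overlap (log2 fold change 0.13, SE 0.056, unadjusted p = 0.0462, adjusted p = 0.837). Tmem28, an older symbol of an accessory subunit gene of this channel, had 4.456, 4.745 and 4.405 FPKM in PS and 5.298, 5.878 and 4.967 FPKM in control libraries. It too showed no overlap, in the other direction (log2 fold change -0.20, SE 0.074, adjusted p = 0.745). Over all tested genes, 11.3% had no overlap in either direction. Fam155a had 2.628, 2.489 and 2.365 FPKM in PS and 2.174, 2.236 and 2.506 FPKM in control libraries (log2 fold change 0.081, SE 0.075, adjusted p = 0.975). Among 11 AMPA receptor subunits and partners, the receptors that TARPs carry, none was called (median log2 fold change 0.034). The receptor subunit gene Gria1 had 73.14, 77.5 and 74.16 FPKM in PS and 66.89, 75.65 and 68.49 FPKM in control libraries (log2 fold change 0.092, SE 0.064, adjusted p = 0.945). Gria4, another receptor subunit gene, had 29.1, 23.07 and 24.31 FPKM in PS and 24.45, 22.86 and 24.47 FPKM in control libraries (log2 fold change 0.082, SE 0.086, adjusted p = 0.975). Shisa6, which encodes an AMPA receptor partner, had 8.81, 6.86 and 7.52 FPKM in PS and 6.898, 7.637 and 6.985 FPKM in control libraries (log2 fold change 0.090, SE 0.089, adjusted p = 0.975). All 3 overlapped between the groups, and PS replicate 1 was the highest library for Gria4 and Shisa6.

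The order of levels between genes depends on the length by which reads were divided. So do the shares of genes and of current types in a summed FPKM. A ratio of plain FPKM between groups for 1 gene does not depend on this length. Through the added 1, the log2 fold changes given here depend on it to some extent, as does the filter at 1 FPKM. The lengths behind the deposited values could be recovered and were set beside the longest coding transcript of each gene in GENCODE M21, a comparison added after seeing the data. For Cacna1e the length used was 54709 bases, 3.67 times the longest coding transcript of 14921 bases. For Cacna2d1 it was 22444 bases against 7436, and for Scn3a 20266 against 9560. Cacng3 went the other way, at 1525 bases against 2777. Divided by the longest coding transcript, Cacna1e averaged 14.2 rather than 3.87 FPKM. It then ranked above Cacna1b, which had 9.46, and above Cacna1g, which had 13.25. Cacna2d1 averaged 27.1 rather than 8.97 and became the first of the alpha2delta genes rather than the third. Over all 38 genes, Cacng7 (79.4) then stood above Scn2b (63.1). Cacng7 led the TARPs and Scn2a the sodium alpha subunits on both lengths.

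Promoters were compared as a feature that the choice of genes did not use. The RefSeq table of GRCm38.p6 start windows, 250 bases before to 50 after each start, held 30 of the 38 genes. CpG content was taken as observed over expected CG pairs, averaged over a gene's listed starts. The 22 tested subunits had a median of 0.629, with 13 at or above 0.6, and the 8 untested ones a median of 0.33, with none at or above 0.6. Over all genes of the files that the table holds, the medians were 0.759 for 9776 tested genes and 0.296 for 10723 untested ones. High brain level and low CpG content nevertheless met in several subunits. Cacng8 (0.109), Scn2b (0.2), Scn1a (0.305), Cacng3 (0.387) and Scn2a (0.449) were all above 20 FPKM. Cacna2d2 had the highest ratio, at 1.1. The windows of the 2 most abundant and the 2 least abundant subunits with a single listed start follow, to show this range, with every CG pair in capitals.

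Scn2b (chr9:45117626-45117925, GRCm38.p6, plus strand): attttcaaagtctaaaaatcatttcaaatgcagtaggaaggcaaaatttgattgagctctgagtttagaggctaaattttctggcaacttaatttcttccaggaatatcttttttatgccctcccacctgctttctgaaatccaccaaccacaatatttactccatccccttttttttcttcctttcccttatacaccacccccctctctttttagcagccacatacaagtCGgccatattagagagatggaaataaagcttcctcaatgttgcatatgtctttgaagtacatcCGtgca
Scn4b (chr9:45138374-45138673, GRCm38.p6, plus strand): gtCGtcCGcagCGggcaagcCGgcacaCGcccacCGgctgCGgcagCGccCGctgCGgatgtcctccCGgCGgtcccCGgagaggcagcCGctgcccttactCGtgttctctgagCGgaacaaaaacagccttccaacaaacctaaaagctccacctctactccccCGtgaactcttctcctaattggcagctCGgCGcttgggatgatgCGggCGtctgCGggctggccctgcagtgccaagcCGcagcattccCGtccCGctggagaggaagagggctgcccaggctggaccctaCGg
Scn4a (chr11:106349341-106349640, GRCm38.p6, minus strand): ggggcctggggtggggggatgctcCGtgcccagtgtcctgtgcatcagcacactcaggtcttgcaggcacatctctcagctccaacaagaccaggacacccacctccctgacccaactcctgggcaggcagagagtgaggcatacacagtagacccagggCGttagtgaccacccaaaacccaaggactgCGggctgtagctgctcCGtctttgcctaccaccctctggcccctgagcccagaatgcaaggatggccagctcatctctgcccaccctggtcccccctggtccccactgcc
Cacna1f (chrX:7606853-7607152, GRCm38.p6, plus strand): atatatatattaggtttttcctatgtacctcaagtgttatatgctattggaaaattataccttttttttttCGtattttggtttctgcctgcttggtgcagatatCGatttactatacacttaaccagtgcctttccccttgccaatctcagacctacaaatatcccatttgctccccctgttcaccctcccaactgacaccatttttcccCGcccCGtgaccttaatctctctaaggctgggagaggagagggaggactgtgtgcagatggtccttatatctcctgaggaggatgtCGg

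Scn2b and Scn4b are neighbours in the genome with no protein-coding gene between them and are the 2 most abundant of the 38 in deposited FPKM, though not per longest coding transcript, where they rank 2 and 4. Their windows hold 2 and 26 CG pairs and are 38.3% and 66.3% G or C. Scn4a, which was near 0 in brain, had 4 CG pairs at 63% G or C, and Cacna1f had 5 at 43.7%. Motifs of activity-linked factors were searched on both strands in all windows. The cAMP response element TGACGTCA was in the windows of 0 of the 30 subunit genes and of 2.03% of all 27018 genes. The pattern TGANTCA, with any base at N, is wider than the AP-1 motif. It was in 1 of 30, Cacng5, and in 8.98% of all genes. The Egr motif GCGTGGGCG was in 1 of 30, Scn7a, and in 0.707% of all genes. A match describes letters in these windows and is not a measured binding site.

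**Figure D5:**
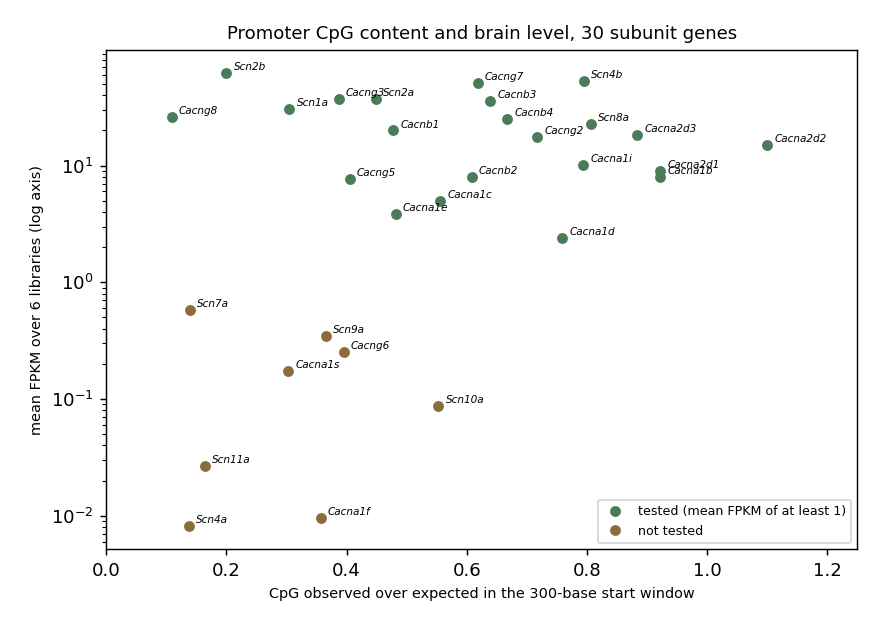
Mean FPKM over the 6 libraries (log axis) against the CpG observed over expected ratio of the start window, 1 point per gene for the 30 subunit genes in the table, coloured by whether the gene was tested. All 8 untested genes lie under 0.6, while tested genes run from 0.109 (Cacng8) to 1.1 (Cacna2d2).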

How the data were processed

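Per the labels' protocols, TRIzol was used for RNA extraction and a VAHTS Universal V6 kit for the libraries. Each library has a gene table of FPKM values, deposited by the authors. The submitters' processing notes name HISAT2, HTSeq, fastp, R 3.2.0 and, as genome build, GRCm39, without order or settings.

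Values were taken as log2(FPKM + 1) without rescaling. Genes with a mean of at least 1 FPKM over the 6 libraries were tested, 12229 of 27378. PS was compared with control by limma 3.58.1 in R 4.3.3 (two-sided, group as the sole term, with a variance trend and 4 residual degrees of freedom), with Benjamini-Hochberg adjustment over all tested genes and calls at an adjusted p under 0.05. Whole reads were recovered from the FPKM steps for 26555 of 26556 genes above 0, within 0.02 reads. They serve for depth and, after limma-voom, as an alternative. Intervals of limma cover the spread between libraries; counting errors cover counting alone.

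The members and lists were chosen with earlier results of these data known. Per-library values are given for the 12 tested subunits with the lowest unadjusted p, the most abundant of each class, those nearest 1 FPKM, and 3 partner genes per list. Deviations from group means correlated at 0.181, 0.185 and 0.161 between same-numbered libraries, so the number was also fitted as a block; no label states what the numbers share. The fit was tested on simulated data. Sequences come from GENCODE M21 and from RefSeq (GRCm38.p6), a build other than that of the files. Letters, transcript lengths and gene neighbours were taken from them, and mitochondrial gene lengths for the recovery of reads. The coordinates printed with the windows are those of GRCm38.p6.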

Additional observations from a re-analysis of the deposited data

How the results depend on the processing

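No channel subunit was called in either direction in any of the 13 alternatives run: pseudocount 0.1, no filter, median-of-ratios rescaling, no variance trend, replicate block, array weights, limma-voom on recovered reads, and each library left out. The lowest adjusted p of a subunit was 0.0571, for Scn4b with array weights, where 7 had an unadjusted p under 0.05. The share of all genes under 0.05 in that fit is not given here. Its weights were 6.01 for control replicate 1 but 0.326 and 0.353 for control replicates 2 and 3. The control side of that fit thus rests mostly on 1 library. Over all genes, calls were 0 lower and 1 higher with no filter, 45 and 3 with the replicate block, and 335 and 297 with array weights. Leaving out a library gave 0 to 49 lower and 0 to 17 higher: 2 lower without PS replicate 1, 0 without PS replicate 2, 2 without control replicate 1, and 49 lower and 17 higher without control replicate 3. Of all genes, 1 was called higher without PS replicate 3 and 1 without control replicate 2. With array weights the log2 fold change turned to 0.0016 for Scn3a and -0.0072 for Cacng2. With libraries left out it ran from -0.049 to 0.12 for Scn2a, -0.083 to 0.065 for Scn3a, -0.14 to 0.0025 for Cacna1d, -0.19 to 0.0027 for Cacnb3, -0.021 to 0.11 for Cacng2, -0.0099 to 0.064 for Cacng7 and -0.014 to 0.15 for Gria4. It kept its sign but ran from 0.074 to 0.16 for Scn2b and 0.038 to 0.14 for Cacng8. The cause was not tested. The subunits' median ran from -0.0032 without control replicate 3 to 0.097 without control replicate 2.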
